A study of Mus musculus with 8 samples.

Results

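Cadherins, protocadherins and contactins are cell surface proteins through which neighbouring cells hold and recognize each other. Classical cadherins bind the same cadherin on the next cell and are tied to actin by catenins, while clustered protocadherins give neurons an individual identity and several non-clustered ones steer axons. Contactins, contactin-associated proteins and the L1 and Ncam families belong to the immunoglobulin and neurexin-like adhesion proteins, and they build the node of Ranvier, the paranode beside it and the surface of growing axons.

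The genes described here are those whose symbol in the deposited table of tested genes begins with Cdh, Pcdh, Cntn, Cntnap, Celsr or Ctnn in the form these families use, together with L1cam, Chl1, Nfasc, Nrcam, Ncam1 and Ncam2. There were 65 such genes among the 10601 genes of that table, and they fell into 10 families. All 65 passed the filter of 10 RPM (reads per M, relative to a mouse's own total) in 1 mouse or more that 10588 genes passed, and 53 of them reached 10 RPM in every mouse. Of 90 symbols of this form in the GENCODE annotation, 63 were among the 65, so the families are described only as far as the cortex expressed them at this level. Just inside the filter lay Pcdhb22 with a highest value of 10.5 RPM, Celsr1 and Pcdhb3 with 10.8 RPM each, Cntnap5c with 11.5 RPM and Cntnap3 with 11.6 RPM. Pcdh18, Pcdhb3, Pcdhb22, Celsr1 and Cntnap3 passed through nontransgenic mice alone, so for these 5 genes the filter itself favoured a lower bigenic value.

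RNA came from the right cortex of 4 bigenic mice (genotype Camk2a-tTa / deltaNLS-hTDP-43) and 4 nontransgenic mice, all C57BL/6, 3 of them male in each group. The bigenic mice carry a tetracycline transactivator under the Camk2a promoter, which is active in excitatory forebrain neurons, and deltaNLS-hTDP-43, human TDP-43 with a disabled nuclear import signal, which the transactivator switches on when doxycycline is absent. Mice of both groups were fed doxycycline until 28 days of age and sampled 10 days after its removal. No group carries a transgene alone, so the transactivator and the human TDP-43 cannot be told apart.

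Values are normalized counts as the authors deposited them, scaled per mouse, with column totals of 20.1 M to 22.0 M in the bigenic and 20.4 M to 21.2 M in the nontransgenic mice. Behind them lie about 10.6 M to 31.9 M reads on genes per bigenic mouse and 20.4 M to 29.0 M per nontransgenic mouse, estimated from the worth of 1 read in each column. Among the adhesion genes the fewest reads behind a value are about 41, for Pcdhb3 at 85 normalized counts in the second bigenic mouse in table order, and the median over the genes and mice was about 899. The table entry uc999vvf.1, which has no gene symbol there, read 29375 to 41550 in the bigenic and 5 to 80 in the nontransgenic mice, and endogenous Tardbp read 4908 to 5502 and 6116 to 7116. The second bigenic mouse lay apart, with a score of 17.4 on the first principal component of all genes where the other 3 bigenic mice had 4.84 to 5.71, and it was also the shallowest. It was the lowest of the 4 bigenic mice for 39 of the 65 genes. Nothing in the labels says how the mice relate to each other, and the p-values measure the spread between these mice.

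More adhesion genes were lower than higher in bigenic cortex. Of the 65 genes, 7 were significantly higher and 18 significantly lower in bigenic mice (limma, Benjamini-Hochberg adjusted p below 0.05), which is 38.5% called where 35.9% of all genes tested were called. The 7 higher genes are 10.8% of the 65 against a background of 20.5%, and the 18 lower genes are 27.7% against 15.4%. The groups did not overlap for 27 genes, or 41.5%, against 39.0% of all genes tested. The median log2 fold change was -0.18, with 46 of 65 values negative, while over all genes tested it was 0.03. Called genes moved by a median of 0.48 on the log2 scale (quartiles 0.39 and 0.62), and all 3796 called genes moved by a median of 0.49. Of the 18 lower genes, Pcdh18, Pcdhb3 and Cntnap3 are among the 5 that the filter favoured. Of the 53 genes with 10 RPM in every mouse 7 were higher and 14 lower, with a median of -0.16. In a fit of only the 8980 genes with 10 RPM in every mouse, 7 (13.2%) were higher and 15 (28.3%) lower. Of those 8980 genes 21.9% were higher and 15.8% lower, with a median of 0.04. Without the second bigenic mouse 9 genes (13.8%) were higher and 23 (35.4%) lower, where over all genes tested the shares also rose, to 25.3% and 20.3%. The median was then -0.12, and every one of the 25 called genes was called in the same direction. Leaving out another single mouse ended the call of 8 of the 25 at least once, namely Celsr2, Cntn1, Cntnap3, Ctnnal1, Ncam1, Nrcam, Pcdh18 and Pcdhb3, at adjusted p-values of 0.0507 to 0.102.

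**Figure D1:**
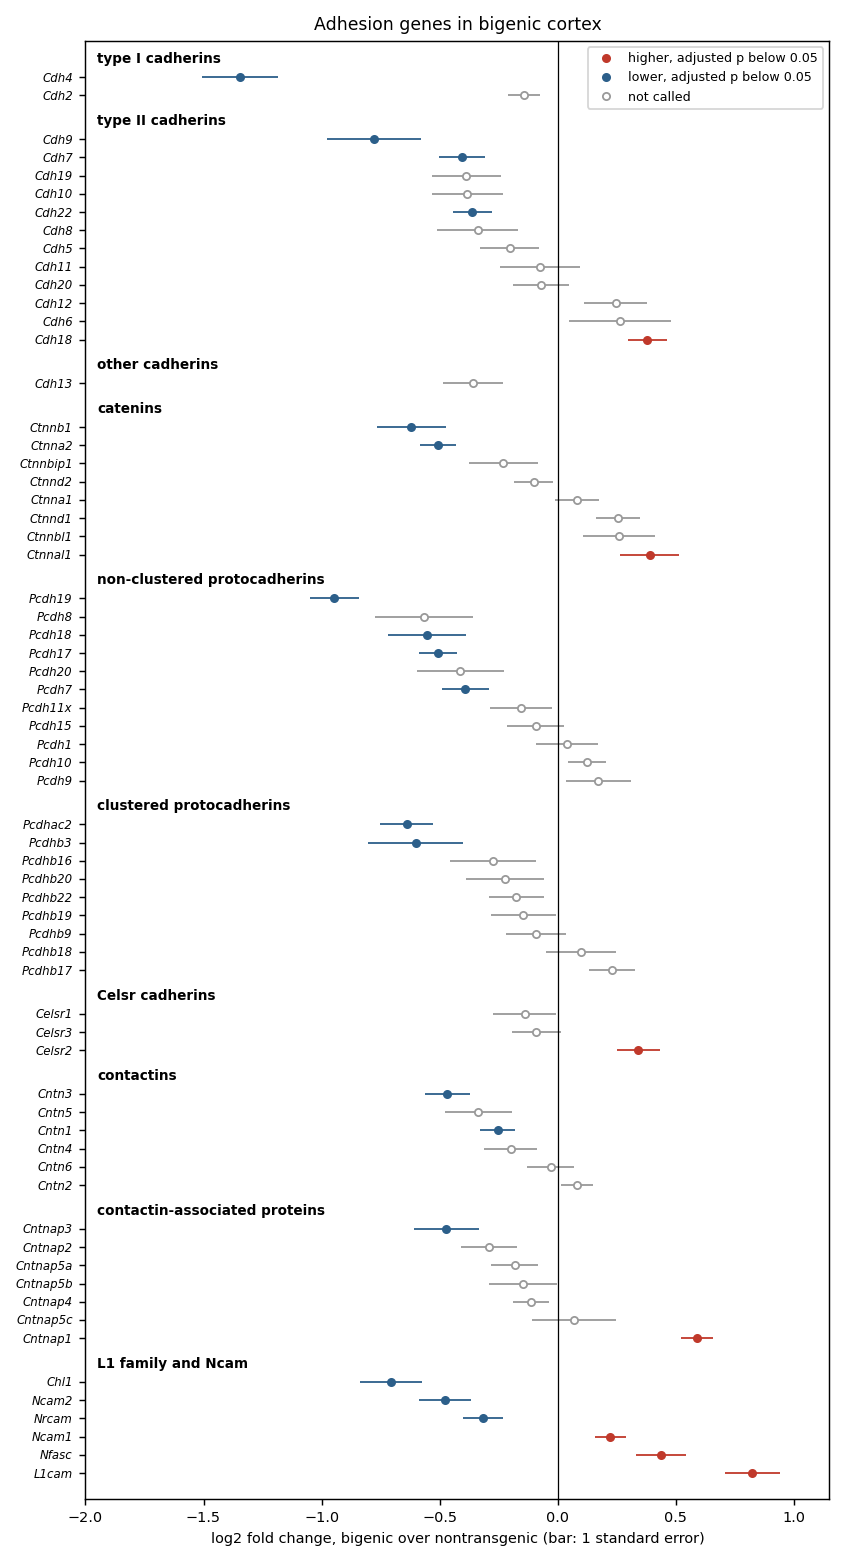
Log2 fold change of bigenic over nontransgenic mice (x axis) for each of the 65 genes, grouped by family, with bars of 1 standard error; filled red points are significantly higher, filled blue points significantly lower and open points not called. Cdh4 lies farthest left at -1.35 and L1cam farthest right at 0.82, and the 6 genes of the L1 and Ncam group divide into 3 on each side.

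The RNA was taken from whole cortex, in which fewer cells of a type and less RNA per cell cannot be told apart. Summed over the 12 astrocyte markers, the bigenic mice had 139701 to 166520 normalized counts and the nontransgenic mice 176216 to 191959, and 6 of the 12 were lower, among them Gja1 (log2 fold change -0.43) and Aqp4 (-0.63). Of 10 microglial markers tested 5 were lower, with Cx3cr1 at -0.56 and P2ry12 at -0.65, and sums of 6116 to 8135 against 8231 to 9539. The 8 excitatory neuron markers summed to 44505 to 63683 against 73770 to 80993, with 3 lower, including Slc17a6 at -1.29 and Camk2a at -0.88, and 1 higher. Of 13 choroid plexus markers 6 were tested and 5 of these were higher, with F5 at 2.71 and Kl at 2.25, but F5, Kl, Clic6 and Prlr passed the filter through bigenic mice alone, and with 10 RPM in every mouse 1 of 2 was higher. The choroid plexus markers had sums of 14275 to 29482 against 6591 to 8221. Most of that difference lay in Ttr, at 7741 to 18520 against 236 to 1023. Enpp2, at 5716 to 10003 against 6181 to 7237, was not called. Of 8 interneuron markers 3 were lower, of 12 oligodendrocyte markers 1 was higher, of 9 endothelial and mural markers 1 was lower, and of 9 general neuron markers 2 were higher and 4 lower. None of 6 oligodendrocyte precursor and none of 4 meningeal markers was called by limma, with 1 and 0 of them at an unadjusted p below 0.05. Over all genes tested 20.5% were higher and 15.4% lower. These marker counts varied when 1 mouse was left out. Choroid plexus markers were 2 to 6 higher (2 of 3 without the first bigenic mouse), microglial markers 4 to 8 lower (8 without the first bigenic mouse), and neuron markers 1 to 3 higher and 1 to 4 lower, with 1 or 2 lower for every mouse left out except the second bigenic. Endothelial and mural markers were 0 to 2 lower, oligodendrocyte markers 0 to 2 higher and 0 to 1 lower, precursor markers 0 to 1 lower and interneuron markers 0 to 1 higher. The part of these markers in the adhesion gene values was not tested.

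Cdh4, the classical cadherin known as R-cadherin, fell most of the 65 genes. It read 234, 192, 266 and 283 normalized counts in the bigenic and 648, 780, 508 and 556 in the nontransgenic mice. Every bigenic mouse lay far below every control, whose mean was 623 ± 120 (SD, n = 4). The fall had a log2 fold change -1.35, SE 0.16, adjusted p = 0.000287. An exon of Cdh4 (whole gene at mm9, chromosome 2, 179177136 to 179634078) overlaps Gm10711 on the same strand, so reads in the shared bases cannot be told apart. Cdh2, N-cadherin of synapses and the other type I cadherin expressed, read 1631 to 1783 in bigenic and 1837 to 1988 in nontransgenic mice without overlap, but its log2 fold change of -0.14 missed the threshold (adjusted p = 0.130).

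Of the 12 type II cadherins, which many neuron classes express in combinations, 3 fell and 1 rose, and their median change was -0.27 on the log2 scale. Cdh9, a cadherin of hippocampal and cortical synapses, read 356, 230, 363 and 399 normalized counts in the bigenic and 616, 683, 597 and 411 in the nontransgenic mice. The lowest nontransgenic value lay just above the highest bigenic one, and the second bigenic mouse was lowest (log2 fold change -0.78, SE 0.20, adjusted p = 0.0132). Cdh7 read 305, 294, 308 and 310 normalized counts in the bigenic and 427, 454, 366 and 374 in the nontransgenic mice. Its bigenic values lay close together and all below the nontransgenic range (log2 fold change -0.41, SE 0.10, adjusted p = 0.00957). Cdh22 read 950, 1065, 883 and 1015 normalized counts in the bigenic and 1194, 1240, 1235 and 1354 in the nontransgenic mice. Here the second bigenic mouse was the highest of its group and still below every control (log2 fold change -0.36, SE 0.08, adjusted p = 0.00806). Cdh18 went the other way and read 685, 689, 689 and 736 normalized counts in the bigenic and 569, 476, 551 and 561 in the nontransgenic mice. All bigenic mice exceeded all controls (log2 fold change 0.38, SE 0.08, adjusted p = 0.0065). The type II cadherins that were not called ranged from Cdh19 at -0.39, Cdh10 at -0.38 and Cdh8 at -0.34, through Cdh5 of endothelial junctions at -0.20, Cdh11 at -0.07 and Cdh20 at -0.07, to Cdh12 at 0.25 and Cdh6 at 0.26. Cdh6 reached 676 in the second bigenic mouse against 280 to 451 in the other bigenic and 338 to 378 in the nontransgenic mice. Cdh13, a cadherin anchored by lipid with no cytoplasmic part, read 901, 654, 923 and 1019 normalized counts in the bigenic and 1157, 1131, 1116 and 1031 in the nontransgenic mice. The groups did not overlap and the test fell just short (log2 fold change -0.36, SE 0.13, adjusted p = 0.0505). Without the second bigenic mouse Cdh10, Cdh12 and Cdh13 were called, with log2 fold changes of -0.22, 0.35 and -0.23.

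Among the 8 catenins and catenin-related genes the median was near 0 at -0.01 (-0.03 to 0.01 with 1 mouse left out), with 2 lower and 1 higher. The called share was 37.5%, against 35.9% of all genes tested. Ctnnb1 encodes beta-catenin, which joins cadherins to alpha-catenin and also carries Wnt signals. It read 8183, 5580, 9249 and 8780 normalized counts in the bigenic and 12454, 12612, 11993 and 10973 in the nontransgenic mice. All bigenic mice were below all controls, the second far below the other bigenic mice. The change had a log2 fold change -0.62, SE 0.14, adjusted p = 0.00881. It had the highest level per kb of exon of the 64 genes with a length, at 2355 ± 145 normalized counts per kb in nontransgenic and 1559 ± 321 in bigenic mice (SD, n = 4). An exon overlaps Ulk4 on the opposite strand.

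Ctnna2, the neuronal alpha-catenin that links the complex to actin, read 3057, 3501, 3061 and 2975 normalized counts in the bigenic and 4353, 4222, 4628 and 4674 in the nontransgenic mice. The groups were apart although the second bigenic mouse was the highest of its group (log2 fold change -0.51, SE 0.08, adjusted p = 0.00101). Ctnnal1, an alpha-catenin relative, rose and read 773, 1063, 788 and 721 normalized counts in the bigenic and 640, 568, 631 and 691 in the nontransgenic mice. The second bigenic mouse was far above the rest, and the other bigenic mice still exceeded every control (log2 fold change 0.39, SE 0.12, adjusted p = 0.0343). Without that mouse the log2 fold change was 0.27. Not called were Ctnnd1 (p120-catenin, which holds cadherins at the membrane) at 0.26, Ctnnbl1 at 0.26, Ctnnbip1, an inhibitor of beta-catenin, at -0.23, Ctnnd2, the neuronal delta-catenin, at -0.10, and Ctnna1 at 0.08. Ctnnbip1 was called without the second bigenic mouse, at -0.40.

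**Figure D2:**
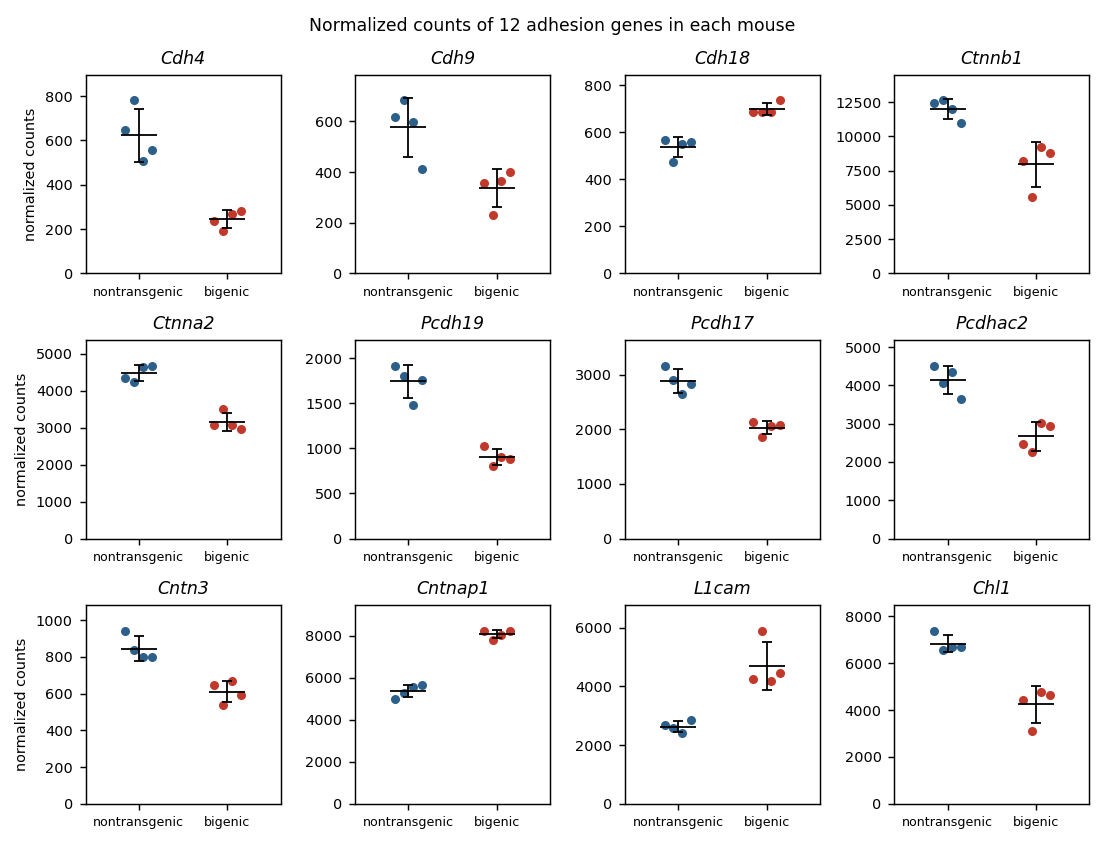
Normalized counts (y axis, from 0) of 12 adhesion genes in each nontransgenic (blue) and bigenic (red) mouse, with the mean as a long dash and bars of 1 SD. In every panel the groups are apart; L1cam, Chl1 and Ctnnb1 show how far the second bigenic mouse can stand from its group, as Ctnnb1 does at 5580 where the other bigenic mice have 8183 to 9249.

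The 11 non-clustered protocadherins had the lowest median of the families with 3 or more genes, -0.39, with 4 genes lower and 0 higher by limma. At an unadjusted p below 0.05 there were 6, and 34 of all 65 adhesion genes. The share of all genes tested at that cut is not given here. The called share was 36.4%, all of it lower, where 35.9% of all genes tested were called and 15.4% were lower. Without the second bigenic mouse the median was -0.25. Pcdh19, the X-linked protocadherin whose loss causes an epilepsy of girls, read 1022, 800, 906 and 882 normalized counts in the bigenic and 1916, 1807, 1482 and 1760 in the nontransgenic mice. Every bigenic mouse stood far below every control (log2 fold change -0.95, SE 0.10, adjusted p = 0.00018). An opposite-strand gene, Gm16795, overlaps an exon of Pcdh19 (whole gene at mm9, chromosome X, 130117402 to 130223532). Pcdh17, which acts at corticostriatal synapses and on axons, read 2126, 1849, 2053 and 2072 normalized counts in the bigenic and 3162, 2906, 2643 and 2819 in the nontransgenic mice. The bigenic mice lay closely together below the controls (log2 fold change -0.51, SE 0.08, adjusted p = 0.0013). Pcdh7 read 4402, 3720, 4809 and 4799 normalized counts in the bigenic and 6439, 5430, 5946 and 5373 in the nontransgenic mice. Its groups did not overlap and the second bigenic mouse was again lowest (log2 fold change -0.39, SE 0.10, adjusted p = 0.0143). Pcdh18 was a low gene that read 147, 116, 173 and 187 normalized counts in the bigenic and 252, 197, 227 and 229 in the nontransgenic mice. The highest bigenic mouse lay just under the lowest control. It passed the filter through nontransgenic mice alone. With no filter on low values it had the same log2 fold change of -0.55 (SE 0.16, adjusted p = 0.0335). That fit does not undo the selection, since the authors' table had a like filter. Pcdh8 (-0.57) and Pcdh20 (-0.41) were as far from 0 but spread more widely, with adjusted p-values of 0.0568 and 0.103. The rest were Pcdh11x at -0.16, Pcdh15 at -0.09, Pcdh1 at 0.04, Pcdh10 at 0.12 and Pcdh9 at 0.17. Without the second bigenic mouse Pcdh8 was called lower at -0.36 and Pcdh9 higher at 0.31.

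Of the 9 clustered protocadherins 2 fell and 0 rose by limma, with a median of -0.18 and 3 genes at an unadjusted p below 0.05. At that unadjusted cut there were 34 of all 65 adhesion genes. The called share was 22.2%, all of it lower, where 35.9% of all genes tested were called and 15.4% were lower. The median was -0.07 without the second bigenic and -0.11 without the first nontransgenic mouse. Pcdhac2, an isoform of the alpha cluster, read 2457, 2256, 3028 and 2948 normalized counts in the bigenic and 4516, 4057, 4344 and 3655 in the nontransgenic mice. All bigenic mice were below all controls (log2 fold change -0.64, SE 0.11, adjusted p = 0.00217). Isoforms of the alpha cluster share their constant exons, so these reads can come from other alpha isoforms. Pcdhb3 read 114, 85, 144 and 138 normalized counts in the bigenic and 152, 221, 190 and 162 in the nontransgenic mice. The groups were narrowly apart, and the values rest on few reads. A single nontransgenic mouse carried it past the filter, and with no filter its log2 fold change was -0.60 (SE 0.19, adjusted p = 0.0482). The fit with no filter does not undo that selection. With equal column totals its adjusted p was 0.0520. Beta protocadherins are related in sequence, and 1.94% to 8.75% of their 50-base windows occur in another gene's transcripts, with no value for Pcdhb20. The other beta genes were not called, from Pcdhb16 (-0.27), Pcdhb20 (-0.22), Pcdhb22 (-0.18), Pcdhb19 (-0.15) and Pcdhb9 (-0.09) to Pcdhb18 (0.10) and Pcdhb17 (0.23).

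The 3 Celsr cadherins act with Frizzled receptors in planar cell polarity and guide axon tracts. Celsr2 read 4609, 5613, 5450 and 5843 normalized counts in the bigenic and 4417, 3933, 4015 and 4583 in the nontransgenic mice. The lowest bigenic mouse was only slightly above the highest control (log2 fold change 0.34, SE 0.09, adjusted p = 0.0174). With the trend on GC content and exonic length removed from each mouse, its log2 fold change was 0.12 (adjusted p = 0.340). Celsr1 at -0.14 and Celsr3 at -0.09 were not called, and the family median was -0.09 (-0.13 to 0.12 with 1 mouse left out, the highest without the first nontransgenic mouse). The called share of the family was 33.3%, against 35.9% of all genes tested.

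Contactins are held in the membrane by a lipid anchor and pair with contactin-associated proteins. Of 6 contactins 2 fell and 0 rose by limma, with a median of -0.23 and 3 at an unadjusted p below 0.05. The same unadjusted cut held 34 of all 65 adhesion genes. The called share was 33.3%, all of it lower, where 35.9% of all genes tested were called and 15.4% were lower. Cntn3 read 646, 536, 669 and 594 normalized counts in the bigenic and 942, 839, 800 and 799 in the nontransgenic mice. The groups were well apart (log2 fold change -0.47, SE 0.10, adjusted p = 0.00458). Cntn1, the partner of Cntnap1 at the paranode, read 9066, 9193, 8813 and 7907 normalized counts in the bigenic and 11160, 10074, 10258 and 10217 in the nontransgenic mice. Its change was small and without overlap (log2 fold change -0.26, SE 0.07, adjusted p = 0.0227). Cntn5 at -0.34, Cntn4 at -0.20, Cntn6 at -0.03 and Cntn2, which clusters potassium channels beside the paranode, at 0.08 were not called.

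Among the 7 contactin-associated proteins Cntnap1 rose and Cntnap3 fell, and the median was -0.15. That is 28.6% called, against 35.9% of all genes tested. Cntnap1, the paranodal protein also called Caspr, read 8206, 7817, 8014 and 8230 normalized counts in the bigenic and 5002, 5256, 5558 and 5655 in the nontransgenic mice. The bigenic mice were tightly grouped far above every control (log2 fold change 0.59, SE 0.07, adjusted p = 0.000225). An exon of Cntnap1 (whole gene at mm9, chromosome 11, 101031837 to 101052038) overlaps Plekhh3 on the opposite strand. Cntnap3 read 157, 134, 166 and 150 normalized counts in the bigenic and 235, 237, 181 and 194 in the nontransgenic mice. Its groups did not overlap. Only nontransgenic mice brought it past the filter, and with no filter its log2 fold change was -0.47 (SE 0.13, adjusted p = 0.0305). Here too the fit with no filter does not undo the selection. Cntnap2, the juxtaparanodal relative of Cntnap1, was at -0.29 and not called, but was called at -0.39 without the second bigenic mouse. Cntnap5a (-0.18), Cntnap5b (-0.15), Cntnap4 (-0.11) and Cntnap5c (0.07) were not called.

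All 6 genes of the L1 family and the Ncam pair changed without overlap, 3 upward and 3 downward, with a median of -0.05 (-0.03 without the first nontransgenic mouse). Over all genes tested 35.9% were called, and the groups did not overlap for 39.0%. L1cam, the founding axonal member of the family, read 4253, 5894, 4180 and 4449 normalized counts in the bigenic and 2685, 2569, 2407 and 2858 in the nontransgenic mice. The second bigenic mouse was highest by a wide margin, and the other bigenic mice were all far above the controls. The rise had a log2 fold change 0.82, SE 0.12, adjusted p = 0.000665. Its log2 fold change was 0.71 without that mouse. An exon of L1cam (whole gene at mm9, chromosome X, 71099117 to 71141444) overlaps Arhgap4 on the same strand. Chl1, its close homologue, moved the other way and read 4443, 3100, 4784 and 4646 normalized counts in the bigenic and 7380, 6582, 6706 and 6675 in the nontransgenic mice. Every bigenic mouse lay below every control, with the second bigenic mouse lowest (log2 fold change -0.71, SE 0.13, adjusted p = 0.00276). Nfasc, which encodes the neurofascins of the node, the axon initial segment and the paranode, read 10540, 13608, 9768 and 10276 normalized counts in the bigenic and 7449, 8306, 8536 and 8103 in the nontransgenic mice. All bigenic mice were above all controls (log2 fold change 0.44, SE 0.11, adjusted p = 0.0105). Nrcam, which gathers at nodes with neurofascin, read 9727, 8504, 10530 and 10083 normalized counts in the bigenic and 13058, 11513, 11990 and 11719 in the nontransgenic mice. It fell in every bigenic mouse relative to every control (log2 fold change -0.32, SE 0.08, adjusted p = 0.0152), and under quantile normalization its adjusted p was 0.0996. Ncam2, a Ncam of olfactory and cortical axons, read 1533, 1146, 1371 and 1383 normalized counts in the bigenic and 2166, 1798, 1670 and 1924 in the nontransgenic mice. The bigenic values were all below the lowest control (log2 fold change -0.48, SE 0.11, adjusted p = 0.00838). Ncam1 rose by 0.22 on the log2 scale (SE 0.07, adjusted p = 0.0261), with 6726 to 7627 in bigenic and 5896 to 6241 in nontransgenic mice. With no filter on low values its adjusted p was 0.05004, just past the threshold. An exon of Ncam1 overlaps Gm11149 on the opposite strand.

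**Figure D3:**
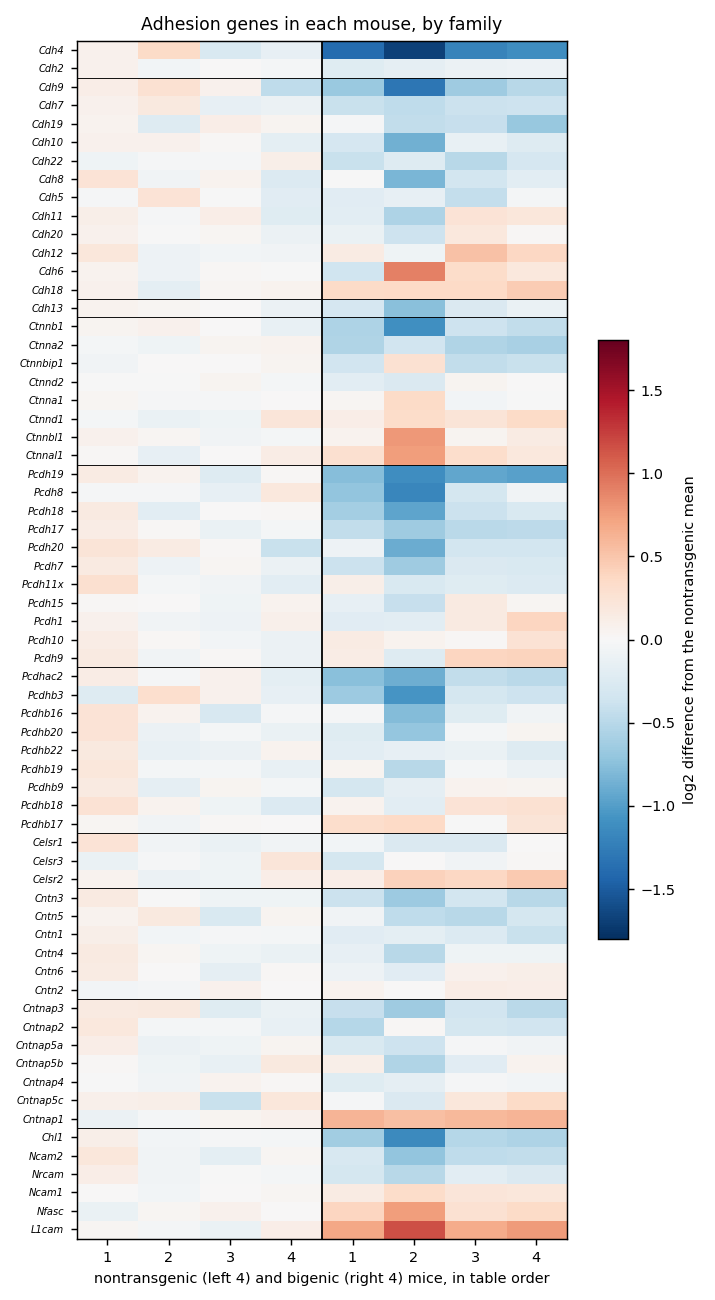
Log2 difference of each gene from its nontransgenic mean (colour, red higher and blue lower) in each of the 8 mice (columns, nontransgenic left) for the 65 genes (rows, by family, lines between families). Cdh4, Pcdh19, Chl1 and Ctnnb1 are blue and Cntnap1, L1cam and Nfasc red in all 4 bigenic mice, and the second bigenic mouse has the darkest cells for many genes.

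Related genes that moved apart were set against each other within each mouse, which removes any scaling of that mouse. The pairs were picked after their values were seen, so the ratios are a description with no test. The log2 ratio of L1cam to Chl1 was -0.06, 0.93, -0.19 and -0.06 in the bigenic and -1.46, -1.36, -1.48 and -1.22 in the nontransgenic mice. L1cam thus stood near the level of Chl1 in bigenic counts and well below it in control counts. For Nfasc over Nrcam the bigenic ratios were 0.12, 0.68, -0.11 and 0.03, and the control ratios -0.81, -0.47, -0.49 and -0.53. For Cntnap1 over Cntn1, the paranodal pair, they were -0.14, -0.23, -0.14 and 0.06 against -1.16, -0.94, -0.88 and -0.85. Ncam1 over Ncam2 gave 2.13, 2.73, 2.37 and 2.34 against 1.50, 1.71, 1.88 and 1.70. The groups were apart in all 4 pairs. This follows from the choice of pairs, since each sets a gene called higher over a gene called lower, both without overlap. These are ratios of counts, not of levels per length.

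**Figure D4:**
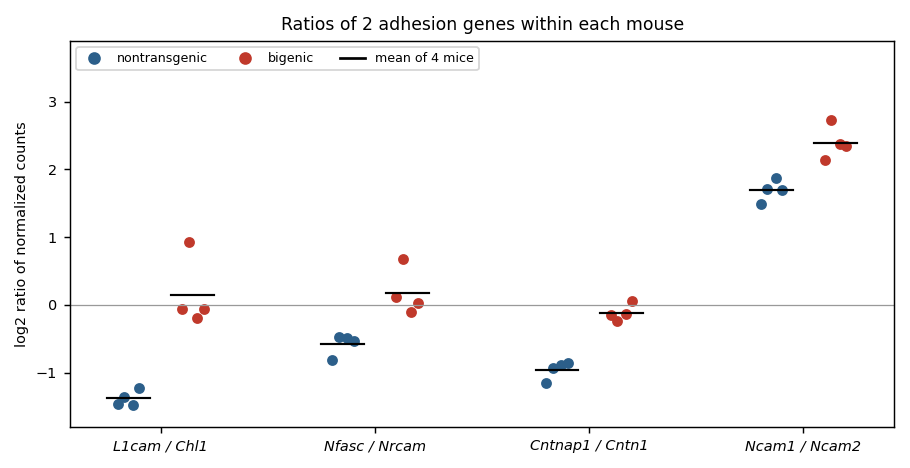
Log2 ratio of the normalized counts of 2 adhesion genes within each mouse (y axis) for 4 pairs (x axis), nontransgenic in blue and bigenic in red, with a black line at the mean of 4 mice. The mean for L1cam over Chl1 was 0.15 in bigenic and -1.38 in nontransgenic mice, and the second bigenic mouse is highest for L1cam, Nfasc and Ncam1.

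RNA of genes whose proteins work with those of the adhesion genes moved in both directions too. Of 92 partners listed 82 were tested, of which 13 (15.9%) were higher and 23 (28%) lower, where 20.5% and 15.4% of all genes tested were. Their median change was -0.02 on the log2 scale, and -0.04 to -0.0040 with 1 mouse left out. The genes named in each group are those with the smallest adjusted p-values, not the largest changes. In the group of the paranode, node and axon 5 of 19 were higher and 6 lower, with Ank3, the ankyrin that anchors neurofascin, at 0.71 and Cadm3, a synaptic cell adhesion molecule, at 0.79. Among these 6 and the 23 lower partners is Tnc, which passed the filter through nontransgenic mice alone. For Tnc the filter itself favoured a lower bigenic value. Of 20 genes of the junction cytoskeleton 3 were higher and 5 lower, among them Pkp4 (-0.40) and Actn1 (-0.44). Of 12 planar polarity genes 2 were higher and 4 lower, among them the receptor Fzd3 (-0.66) and the giant cadherin Fat3 (0.37). Of 14 genes of cadherin shedding and beta-catenin turnover 1 was higher and 1 lower, the scaffold Axin1 at 0.73 and Apc at -0.24. Of 17 genes of protocadherin control and signalling 2 were higher and 7 lower, among them Wasf1 (-0.69) and Abi2 (-0.64), both members of the WAVE complex that several protocadherins bind.

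Adhesion genes are long, with a median of 153 kb where all genes tested have 28.2 kb. The 7 higher genes had a median length of 54.3 kb and the 17 lower genes with a length 166 kb, while the 40 genes not called had 146 kb. In bins chosen after the values were seen, 2 of 15 adhesion genes under 30 kb, 3 of 11 from 30 to 100 kb, 7 of 17 from 100 to 300 kb and 5 of 21 over 300 kb were lower. Over all genes tested 13.7%, 14.0%, 20.9% and 30.2% of the same bins were lower. The rank correlation of gene length with log2 fold change across genes was weak, at -0.06 over the 64 adhesion genes with a length and -0.07 over all genes, and that of exonic GC content was 0.21 and 0.22. Genes are not independent replicates. Runs of at least 10 TG repeats, the kind of sequence TDP-43 is known to bind in RNA, lay in 81.3% of the adhesion genes and 64.5% of all genes tested, and longer genes hold more of them. Binding was not measured here.

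Of the 65 genes, 41 had a promoter of 300 bases in the RefSeq table (GRCm38.p6). Of the called genes with an entry, the 2 with the largest fall and the 2 with the largest rise are shown so that their makeup can be compared. Each runs from 250 bases before to 50 bases after the start, on the gene's strand, with matches of the searched motifs in capitals.
Pcdh19 (chrX:133688944-133689243, minus strand): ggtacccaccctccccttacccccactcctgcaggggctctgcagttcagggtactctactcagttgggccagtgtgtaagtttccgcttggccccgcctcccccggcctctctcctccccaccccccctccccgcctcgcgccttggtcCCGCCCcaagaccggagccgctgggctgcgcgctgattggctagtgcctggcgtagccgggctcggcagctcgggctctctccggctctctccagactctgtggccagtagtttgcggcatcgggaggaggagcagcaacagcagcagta
Cdh9 (chr15:16728665-16728964, plus strand): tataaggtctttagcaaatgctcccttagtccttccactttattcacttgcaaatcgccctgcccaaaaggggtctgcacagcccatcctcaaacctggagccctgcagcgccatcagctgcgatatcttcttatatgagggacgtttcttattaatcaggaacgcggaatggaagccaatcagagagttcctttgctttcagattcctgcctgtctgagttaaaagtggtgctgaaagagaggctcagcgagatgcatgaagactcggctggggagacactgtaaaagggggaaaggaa
L1cam (chrX:73880741-73881040, minus strand): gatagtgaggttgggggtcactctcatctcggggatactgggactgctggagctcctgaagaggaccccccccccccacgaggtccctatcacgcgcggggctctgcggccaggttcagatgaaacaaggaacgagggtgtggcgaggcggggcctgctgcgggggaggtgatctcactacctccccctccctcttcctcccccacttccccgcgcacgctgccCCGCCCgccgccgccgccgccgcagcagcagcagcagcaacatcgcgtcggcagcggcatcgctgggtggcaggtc
Nfasc (chr1:132707277-132707576, minus strand): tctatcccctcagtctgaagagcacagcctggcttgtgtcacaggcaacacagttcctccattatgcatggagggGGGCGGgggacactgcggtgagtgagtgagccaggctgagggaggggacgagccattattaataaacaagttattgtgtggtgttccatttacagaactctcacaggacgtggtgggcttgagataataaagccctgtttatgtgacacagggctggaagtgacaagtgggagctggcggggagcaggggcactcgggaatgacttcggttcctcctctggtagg
The motifs searched on both strands were the TATA box (TATAAA), the GC box (GGGCGG), the E-box (CACGTG) and the core of the cyclic AMP response element (TGACG), of which the E-box and that core can share bases. Pcdh19, L1cam and Nfasc each had 1 GC box, and Cdh9 had no match of any of them. The GC box lay in 51.2% of the 41 adhesion gene promoters, in 35.9% of all 27025 promoters of this length and in 67.3% of the 7448 that belong to genes tested. The TATA box lay in 7.32%, 14.2% and 6.19%. The E-box was in 0 of the 41, against 7.24% of all and 11.0% of tested promoters, and TGACG in 12.2% against 21.0% and 33.5%. The median number of CpG was 18 in the 41, 7 in all promoters and 22 in those of genes tested. Both L1cam and Nfasc have 2 entries in the table, of which 1 is shown.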

How the data were processed

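Poly(A)+ RNA of the right cortex was sequenced as 50-base single-end reads. The authors trimmed adaptors with cutadapt, mapped with Bowtie 0.12.7 to mm9, kept uniquely mapped reads, counted them on exons with bedtools and summed exons into genes. The authors deposited a signal per transcript and mouse, normalized counts scaled per mouse and rounded, for 28662 transcripts. Whole reads could not be recovered from them, so no count test was run. A second table gave symbols; the log2 fold changes and p-values that the authors deposited there from DESeq2 were not used.

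Values were tested as log2(value + 1) with limma 3.58.1 (lmFit, eBayes with trend) in R 4.3.3 over the 10588 genes that reached 10 RPM in 1 mouse or more, relative to that column's total. P-values were adjusted by Benjamini-Hochberg and called below 0.05. Fold changes on this scale slightly understate those of low genes. The fit was tested on simulated data. A first criterion for recovered genes failed there, and a looser one replaced it after the result was seen. Python 3.11.15, numpy 2.4.6 and pandas 2.3.3 were used. Lengths, positions and overlaps come from GENCODE on the same build (mm9), and 96.4% of the genes tested have a length. Shared windows are 50-base stretches found in other genes' transcripts. Reads are described as stranded, but counting is not stated to use strand.

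The genes, partner lists and markers were chosen with earlier results of these data known. Every mouse's values are given for up to 4 called genes per family with the smallest adjusted p, the best gene of a family with none, and Nrcam; from partners the best 2 per group, and from markers the best 2 where set beside a result. Mice are called by table order, since columns name a group and an animal number but no sample. Alternatives were pseudocounts of 10 and 0.1, no filter, 10 RPM in every mouse, equal column totals, quantile normalization, array weights, an adjusted p below 0.01, leaving out each mouse, and, chosen after seeing the data, removal of a GC and length trend.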

Additional observations from a re-analysis of the deposited data

Results flagged for a closer look

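A single mouse stood far from the other 3 of its group for 10 of the 130 sets of 4 values (65 genes in 2 groups), by the ratio of its gap to the group's range, where chance gives about 1 in 20. All 10 were the highest of their group. In the second bigenic mouse these were L1cam at 5894 normalized counts (next highest 4449), Ctnna2 at 3501 (3061), Ctnnbip1 at 1040 (677) and Ctnnbl1 at 931 (599). In the first nontransgenic mouse they were Cntn1 at 11160 (10258), Chl1 at 7380 (6706), Cdh12 at 686 (572) and Celsr1 at 228 (183). The others were Pcdh11x at 370 (295) in the first bigenic mouse and Cdh18 at 736 (689) in the fourth. L1cam, Ctnna2, Cntn1, Chl1 and Cdh18 are among the called genes. Cntn1 lost its call without the first nontransgenic mouse (log2 fold change -0.22, adjusted p = 0.0713).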

How the results depend on the processing

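None of the 25 called genes changed direction under any of the 17 alternatives. Of their 419 values 378 stayed past the threshold and 41, over 11 genes, did not; leaving out each mouse in turn gave 26 of these, over 8 genes. By mouse in table order, Celsr2 was lost without bigenic mouse 4 and nontransgenic mice 2 and 3 (adjusted p 0.0510 to 0.0590), Cntn1 without bigenic 4 and nontransgenic 1 and 3 (0.0562 to 0.0713), Cntnap3 without bigenic 4 and nontransgenic 1 and 2 (0.0528 to 0.0815), Ctnnal1 without nontransgenic 1, 2 and 3 (0.0733 to 0.102), Ncam1 without bigenic 3 and 4 and nontransgenic 1, 2 and 3 (0.0540 to 0.0816), Nrcam without nontransgenic 1 (0.0507), and Pcdh18 (0.0539 to 0.0793) and Pcdhb3 (0.0509 to 0.102) each without bigenic 1 and nontransgenic 1, 3 and 4. Leaving out mice, 4 to 9 genes were higher and 13 to 23 lower, with a median of -0.21 to -0.12, while of all genes 14.3% to 25.3% were higher and 10.5% to 20.3% lower. The lowest count of higher genes, 4, came without the second and without the third nontransgenic mouse, and the most lower genes, 23, without the second bigenic mouse. Partners were 10 to 16 higher and 20 to 29 lower. The Celsr median ranged from -0.13 to 0.12. At an adjusted p below 0.01, 3 genes were higher and 11 lower, and 8 partners higher, with 11.3% and 8.14% of all genes higher and lower. Array weights gave the second bigenic mouse a weight of 0.0843. With them 12 genes (18.5%) and 22 partners were higher, where the share of all genes higher rose from 20.5% to 34.1%. With the same weights 27 genes (41.5%) were lower, where the share of all genes lower rose from 15.4% to 26.9%. The medians were -0.21 for non-clustered protocadherins, -0.00164 for Celsr and -0.0278 for contactin-associated proteins. Quantile normalization gave a partner median of -0.0534, and removing the GC and length trend -0.0545, with a Celsr median of -0.30. With 10 RPM in every mouse, 2 Celsr genes were left, with a median of 0.13.

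Signs turned for 9 genes, none called. With array weights these were Cdh20 (0.0593), Cdh11 (0.140), Ctnna1 (-0.00715), Pcdh15 (0.0882), Pcdhb9 (0.0369) and Cntn6 (0.104). Leaving out each mouse in turn gave -0.159 to 0.0287 for Cdh20, -0.180 to 0.0863 for Cdh11, -0.00591 to 0.126 for Ctnna1, -0.179 to 0.0146 for Pcdh15, -0.0841 to 0.0283 for Cntn6, -0.0773 to 0.121 for Pcdh1 and -0.0651 to 0.179 for Cntnap5c. With the GC and length trend removed, Pcdh1 was -0.176, Cntn2 -0.0577 and Cntn6 0.0537. The causes were not tested. No paired analysis was possible because the columns carry no replicate number of the labels. Depth limits Pcdhb3 most, with a counting error of 15.6% at its lowest value.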
